A study of Homo sapiens with 14 samples.

Results

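The EGR and KLF zinc-finger factors were followed in LY2 breast cancer cells after an siRNA against SRC-1, a coactivator of nuclear receptors encoded by NCOA1, and after 4-hydroxytamoxifen. They are a list of 10 genes chosen by name: EGR1, EGR2, EGR3, EGR4, KLF2, KLF4, KLF5, KLF6, KLF9 and KLF10. Of these 10, 9 were measured, by 24 of the 54613 probe sets on the array, and EGR2 was not analysed here. EGR3 and KLF4 were higher in the SRC1-siRNA cells both with and without tamoxifen, by 2.07-fold to 3.76-fold. EGR4 was higher by 2.87 on the log2 scale in the SRC1-siRNA cells that had tamoxifen, against a dim control signal, and it was split between arrays in untreated cells. When the replicate number was added to the model, EGR3 passed under both treatments and KLF4 in untreated cells only. The EGR4 call was then lost. Over 25 alternative ways of processing or leaving out arrays, the untreated EGR3 call was lost under 2. The untreated call of KLF4 221841_s_at was kept under all 25. No probe set of EGR1, KLF2, KLF5, KLF6, KLF9 or KLF10 passed the test of the knockdown.

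LY2 is a line derived from the estrogen-dependent line MCF-7 that grows despite anti-estrogens, and the study asked which genes depend on SRC-1 in such cells. All cells had been maintained in 10 nM 4-hydroxytamoxifen, the active metabolite of tamoxifen, and were grown without it for 72 hours before use. They were transfected with 40 nM siRNA and incubated for 24 hours, then given 100 nM 4-hydroxytamoxifen or ethanol vehicle for 2 hours. The 14 arrays formed 4 groups: SRC1 siRNA with tamoxifen (2 arrays, replicates 1 and 3), control scrambled siRNA with tamoxifen (4 arrays), SRC1 siRNA untreated (4 arrays) and control scrambled siRNA untreated (4 arrays). A single siRNA reagent per target and a single cell line were used. The labels call the replicates biological and say no more of separate cultures, so the p-values measure the spread between these arrays. The 4 control arrays of a treatment serve both the knockdown and the tamoxifen comparisons, which therefore share samples.

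EGR proteins bind GC-rich DNA through zinc fingers and are textbook immediate early genes: growth factor signals acting through MAP kinases, serum response factor and CREB turn them on within minutes to hours. NAB1 and NAB2 are corepressors that bind EGR proteins, and NAB2 is itself an EGR target. KLF proteins share a set of zinc fingers that bind GC or CACCC boxes. Several of them, including KLF2, KLF4, KLF6 and KLF10, also respond early to growth factors, shear stress or transforming growth factor beta. In breast epithelium KLF4 and KLF5 are studied for opposing roles in growth and differentiation.

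RefSeq promoter windows of 250 bases before the start of transcription were available for 8 of the 10 genes, and not for EGR3 or KLF10. The KLF4 window is shown because KLF4 passed for the knockdown under both treatments. The EGR4 window is shown because 1 EGR4 probe set passed, with tamoxifen only. These calls are those of the model without the replicate number. The EGR1 window is shown as that of an EGR gene that did not pass. KLF2, KLF6 and KLF10, named above as early genes, did not pass either. The windows were picked by these outcomes, so their motifs are no comparison of passing with other genes. Capitals mark CArG boxes (the serum response factor site), TGACG (the core of a CREB site) and GGGCGG (a GC box of SP and KLF factors), the last pair on either strand, so that CGTCA and CCGCCC are capitalised too.
EGR4, GRCh38.p14, chr2:73293549-73293798, minus strand: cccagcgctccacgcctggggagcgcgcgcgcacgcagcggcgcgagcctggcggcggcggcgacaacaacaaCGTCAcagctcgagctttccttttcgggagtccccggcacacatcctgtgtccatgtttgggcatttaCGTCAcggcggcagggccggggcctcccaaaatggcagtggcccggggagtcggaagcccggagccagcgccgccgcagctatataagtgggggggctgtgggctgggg
KLF4, GRCh38.p14, chr9:107489770-107490019, minus strand: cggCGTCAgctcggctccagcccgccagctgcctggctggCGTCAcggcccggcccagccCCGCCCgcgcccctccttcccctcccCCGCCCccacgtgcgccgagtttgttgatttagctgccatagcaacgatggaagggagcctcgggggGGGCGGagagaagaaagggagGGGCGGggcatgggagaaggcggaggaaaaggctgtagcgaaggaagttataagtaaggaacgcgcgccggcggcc
EGR1, GRCh38.p14, chr5:138465229-138465478, plus strand: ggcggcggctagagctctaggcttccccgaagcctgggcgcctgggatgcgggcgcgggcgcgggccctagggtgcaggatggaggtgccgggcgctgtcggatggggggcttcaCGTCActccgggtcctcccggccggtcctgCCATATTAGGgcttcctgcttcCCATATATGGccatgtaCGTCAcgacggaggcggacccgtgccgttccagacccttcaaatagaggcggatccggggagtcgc
The EGR1 window held 2 CArG boxes and 2 TGACG motifs. The EGR4 window held 0 CArG boxes, 2 TGACG motifs and 0 GGGCGG motifs. The KLF4 window held 0 CArG boxes, 2 TGACG motifs and 4 GGGCGG motifs. Of 35116 RefSeq windows of the same length, 1.16% held a CArG box, 21.2% held TGACG and 42.6% held GGGCGG. GCGNGGGCG, the EGR site, was searched on both strands as well and was present in 8.41% of windows. It occurred 1 time in the EGR1 window, 1 time in the KLF4 window, where it overlapped a GGGCGG motif, and 0 times in the EGR4 window. These matches describe letters in the windows and were not tested for binding.

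Signals are the deposited log2 values, and the array medians lay between 3.44 and 3.51. A change is a difference of mean log2 signal with its standard error from limma, and a probe set passed where its p adjusted by Benjamini-Hochberg over all 54613 probe sets was under 0.05. Of the 24 probe sets, 17 had a mean above the median probe set (3.47) and 7 had means of 2.11 to 3.44, below it. NCOA1, as the mean of its 4 probe sets, had log2 signals of 7.91 and 7.56 in the SRC1-siRNA tamoxifen arrays, against 8.86 to 9.27 in the control-siRNA tamoxifen arrays. Untreated, it lay between 7.27 and 8.01 with SRC1 siRNA and between 8.77 and 9.27 with control siRNA. These groups did not overlap, and the difference was -1.32 with tamoxifen (p = 0.0667 by an exact permutation test, two-sided, and no smaller p is possible with 15 regroupings) and -1.30 untreated (exact permutation p = 0.0286, with 70 regroupings). Luminal breast markers (9 genes, among them ESR1, GATA3 and KRT8) averaged 12.42 to 12.52 on every array. Single luminal markers did differ between the siRNA groups. Untreated, 1 passed as higher and 1 as lower (CDH1), where 11.9% of all genes passed. With tamoxifen 0 luminal markers passed in limma and 3 had an unadjusted p under 0.05. With the replicate number in the model 0 passed under either treatment. Markers of other cell types were dim. With tamoxifen, 4 measured immune markers averaged 2.42 to 2.63 with SRC1 siRNA and 2.31 to 2.39 with control siRNA, and untreated 2.37 to 2.54 with SRC1 siRNA and 2.29 to 2.37 with control siRNA. The 6 endothelial markers averaged 2.36 to 2.44 with SRC1 siRNA and 2.47 to 2.51 with control siRNA when tamoxifen was given, and untreated 2.58 to 2.69 with SRC1 siRNA and 2.45 to 2.53 with control siRNA. Of them CDH5 was lower with SRC1 siRNA than with control siRNA in tamoxifen-treated cells (-0.36, adjusted p = 0.00273). PECAM1 was higher with SRC1 siRNA in untreated cells (0.73, adjusted p = 0.0255, and 0.0862 with the replicate number in the model). With that number in the model, 1 endothelial marker passed for the knockdown with tamoxifen, as lower, and 0 untreated. For the knockdown 0 immune markers passed in limma (1 with tamoxifen and 3 untreated had an unadjusted p under 0.05). The 6 fibroblast markers averaged 3.84 to 3.89 with SRC1 siRNA and 3.83 to 3.90 with control siRNA when tamoxifen was given, and untreated 3.78 to 3.86 with SRC1 siRNA and 3.73 to 3.81 with control siRNA. The part of these marker shifts in the EGR and KLF differences was not tested.

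EGR3, an immediate early transcription factor (chromosome 8, 22687659 to 22693480, GRCh38.p14), was higher with SRC1 siRNA on every array. In tamoxifen-treated cells its probe set 206115_at had log2 signals of 9.29 and 8.91 with SRC1 siRNA, against 6.29, 7.50, 7.51 and 7.49 with control siRNA. In untreated cells it had 9.36, 8.87, 9.09 and 8.09 with SRC1 siRNA, against 7.15, 7.35, 7.27 and 7.61 with control siRNA. The siRNA groups did not overlap under either treatment; the lowest control array was replicate 1 with tamoxifen and the lowest SRC1-siRNA array was replicate 4 untreated. The knockdown change was 1.91 ± 0.35 with tamoxifen (3.76-fold, adjusted p = 0.00484) and 1.51 ± 0.29 untreated (2.85-fold, adjusted p = 0.00551). Its mean was highest in SRC1-siRNA tamoxifen cells (9.10 ± 0.27, SD, n = 2), then in SRC1-siRNA untreated cells (8.85 ± 0.55, n = 4), control-siRNA untreated cells (7.34 ± 0.20, n = 4) and control-siRNA tamoxifen cells (7.19 ± 0.61, n = 4). Within each siRNA the 2 treatments lay within the spread between arrays. The call in untreated cells was lost without the arrays of replicate 2 (adjusted p = 0.0534) or of replicate 3 (adjusted p = 0.0619).

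EGR4, another immediate early EGR factor, is measured by 3 probe sets, and the brightest, 207768_at, gave the largest change of all 24. With tamoxifen it had log2 signals of 7.01 and 6.53 in SRC1-siRNA cells, against 3.32, 4.31, 4.36 and 3.63 in control-siRNA cells. These groups did not overlap, and the change was 2.87 ± 0.73 (adjusted p = 0.0222). With the replicate number in the model it did not pass (adjusted p = 0.108). The control arrays lay around the median of all probe sets (3.47), so no fold is given for this probe set, since how dim signals were corrected is not stated. Untreated, it had 7.16, 6.58, 6.68 and 4.50 in SRC1-siRNA cells, against 3.77, 3.93, 4.13 and 6.36 in control-siRNA cells. Here the groups overlapped, because replicate 4 was the lowest SRC1-siRNA array and the highest control array, and the change of 1.69 ± 0.60 did not pass (adjusted p = 0.0925; 95% interval 0.40 to 2.97). Without the SRC1-siRNA array of replicate 4 the change was 2.26 (adjusted p = 0.0148), without the control array of replicate 4 it was 2.29 (adjusted p = 0.0159), and without both, with the other arrays of replicate 4 left out too, it was 2.87 (adjusted p = 0.000277). Replicate 4 is named here because its values were seen to be turned, and leaving out such arrays raises the change by itself. These values are therefore no support for an EGR4 change in untreated cells. The other EGR4 probe sets did not pass with tamoxifen: 231575_at changed by 0.44 ± 0.14 (adjusted p = 0.0505) and 207767_s_at by 0.75 ± 0.35 (adjusted p = 0.171), both with groups that did not overlap. Untreated they gave 0.24 (adjusted p = 0.201) and 0.26 (adjusted p = 0.623). On 207767_s_at the untreated arrays of replicate 4 were again turned, at 2.92 with SRC1 siRNA and 4.29 with control siRNA.

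EGR1, the best known immediate early member and a tumour growth regulator, varied little between the 4 groups on its brightest probe set. Its brightest probe set, 227404_s_at, had log2 signals of 13.05 and 13.19 in SRC1-siRNA cells with tamoxifen, against 12.71, 12.99, 12.86 and 13.04 in control-siRNA cells with tamoxifen. Untreated, it had 13.24, 13.18, 13.15 and 13.03 with SRC1 siRNA, against 13.22, 12.98, 13.04 and 13.06 with control siRNA. The tamoxifen groups lay next to each other without overlap, and the untreated groups overlapped. The change was 0.22 ± 0.10 with tamoxifen (adjusted p = 0.143; 95% interval 0.01 to 0.43) and 0.08 ± 0.08 untreated (adjusted p = 0.602; 95% interval -0.09 to 0.24). The dimmest EGR1 probe set, 201693_s_at, spread more: 4.81 and 5.79 with SRC1 siRNA and 4.27 to 5.36 with control siRNA in tamoxifen-treated cells, and 5.32 to 6.03 with SRC1 siRNA and 4.99 to 6.15 with control siRNA in untreated cells. Its knockdown changes were 0.35 ± 0.36 with tamoxifen (adjusted p = 0.551) and 0.33 ± 0.29 untreated (adjusted p = 0.528). For tamoxifen it changed by -0.46 in SRC1-siRNA cells (adjusted p = 0.559) and -0.49 in control-siRNA cells (adjusted p = 0.442).

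**Figure D1:**
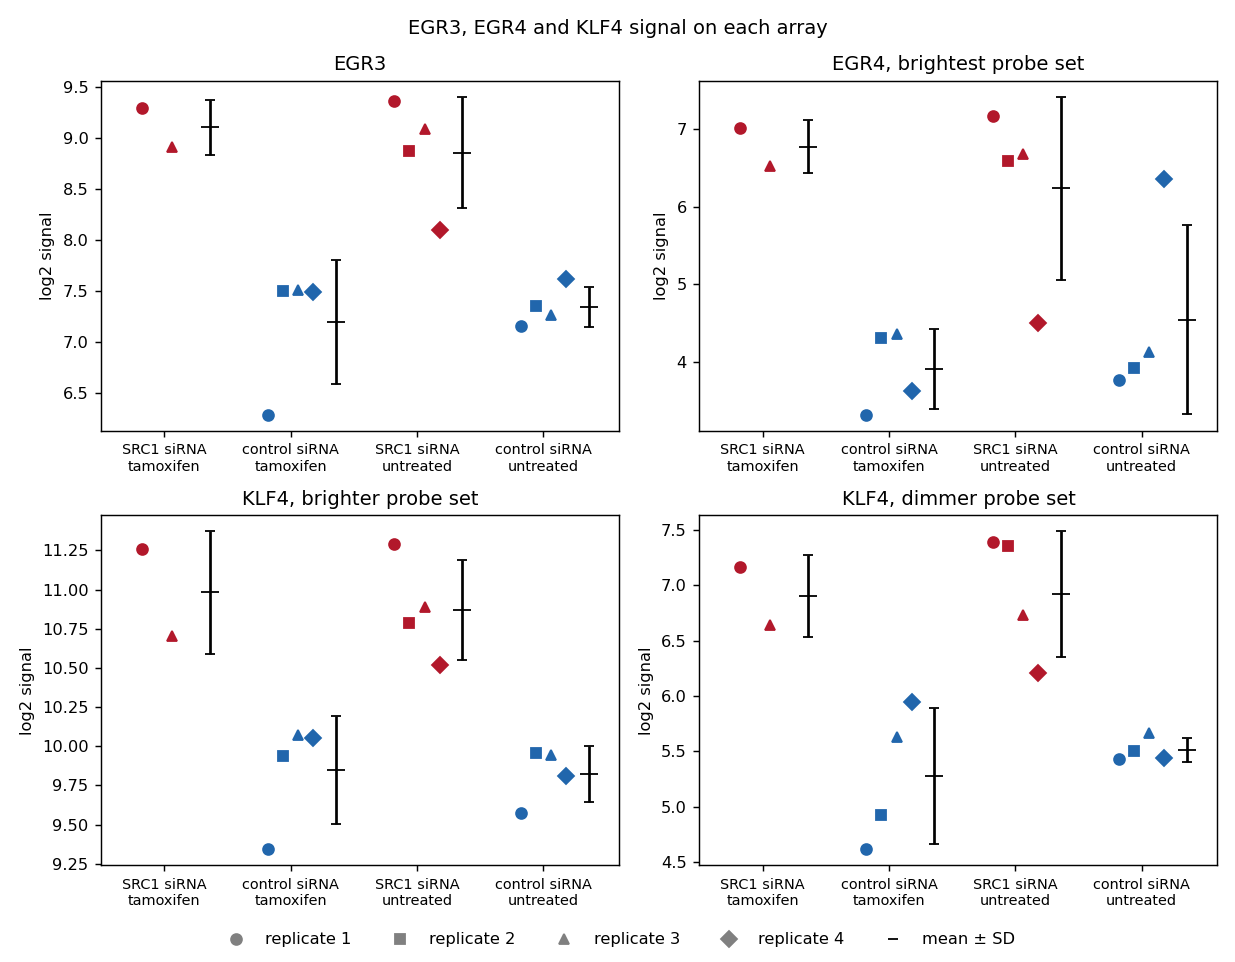
Log2 signal (y axis) of the probe sets of EGR3, EGR4 and KLF4 on each array, in the 4 groups of siRNA and treatment (x axis); symbols give the replicate number, bars the mean ± SD. EGR3 and KLF4 lie higher on every SRC1-siRNA array than on the control arrays of the same treatment, and EGR4 207768_at of replicate 4 untreated is at 4.50 with SRC1 siRNA and 6.36 with control siRNA.

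KLF4, a regulator of epithelial differentiation and of pluripotency, was higher with SRC1 siRNA on both of its probe sets. On 221841_s_at the log2 signals with tamoxifen were 11.26 and 10.71 in SRC1-siRNA cells, against 9.34, 9.94, 10.07 and 10.05 in control-siRNA cells. Untreated they were 11.29, 10.79, 10.89 and 10.52 in SRC1-siRNA cells, against 9.58, 9.96, 9.94 and 9.81 in control-siRNA cells. The groups did not overlap, and the change was 1.13 ± 0.23 with tamoxifen (2.19-fold, adjusted p = 0.00784) and 1.05 ± 0.19 untreated (2.07-fold, adjusted p = 0.00389). The second probe set, 220266_s_at, had 7.16 and 6.64 with SRC1 siRNA and tamoxifen, against 4.61, 4.93, 5.63 and 5.95 with control siRNA and tamoxifen. Untreated it had 7.39, 7.36, 6.73 and 6.21 with SRC1 siRNA, against 5.43, 5.50, 5.67 and 5.44 with control siRNA. Again no control array reached an SRC1-siRNA array, and the change was 1.63 ± 0.36 with tamoxifen (3.08-fold, adjusted p = 0.0116) and 1.41 ± 0.29 untreated (2.66-fold, adjusted p = 0.00882). In both siRNA groups the tamoxifen and untreated means of KLF4 lay within the spread between arrays. Without the arrays of replicate 2 the untreated call of 220266_s_at was lost (adjusted p = 0.0760), and that of 221841_s_at was kept under all 25 alternatives. With the replicate number in the model both untreated calls were kept. Those with tamoxifen were lost (adjusted p = 0.0585 for 221841_s_at and 0.0750 for 220266_s_at).

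All 4 passing probe sets with tamoxifen depended on the 2 SRC1-siRNA tamoxifen arrays. Without the array of replicate 1, which was the higher of both for each of them, the changes were 1.72 for EGR3 (adjusted p = 0.0670), 2.62 for EGR4 207768_at (adjusted p = 0.153), and 0.85 and 1.37 for KLF4 (adjusted p = 0.114 and 0.124). Without the other array, replicate 3, the EGR4 probe set did not pass either (adjusted p = 0.0713). With all arrays of a replicate number left out, EGR4 207768_at passed without replicate 4 alone of the 4 numbers, and KLF4 220266_s_at was lost without replicate 1 (adjusted p = 0.165) or replicate 3 (adjusted p = 0.0626).

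The remaining KLF genes differed little between the siRNA groups. KLF5, a growth-promoting epithelial factor, had 9.97 and 9.91 on 209211_at with SRC1 siRNA and tamoxifen, against 9.90 to 10.10 with control siRNA and tamoxifen, and 9.96 to 10.31 untreated with SRC1 siRNA, against 9.96 to 10.06 with control siRNA. KLF6, a candidate growth suppressor, lay between 11.03 and 11.58 on all 14 arrays (1555832_s_at). KLF9, a hormone-responsive repressor, lay between 7.74 and 8.11 (203543_s_at), and KLF2, best known from endothelium and T cells, between 3.92 and 4.81 (219371_s_at). KLF10, an early gene of transforming growth factor beta, had 11.76 and 11.65 with SRC1 siRNA and tamoxifen, against 11.76, 11.86, 11.92 and 11.79 with control siRNA and tamoxifen. Untreated, KLF10 had 11.61, 11.72, 11.86 and 11.74 with SRC1 siRNA, against 11.73, 11.61, 11.51 and 11.58 with control siRNA. Across the 18 probe sets of EGR1, KLF2, KLF5, KLF6, KLF9 and KLF10, the knockdown changes ran from -0.24 to 0.35 with tamoxifen, where the lowest adjusted p was 0.0893. Untreated they ran from -0.21 to 0.33, where the lowest adjusted p was 0.142. In each case 2 of these 18 had an unadjusted p under 0.05 and 0 passed in limma.

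**Figure D2:**
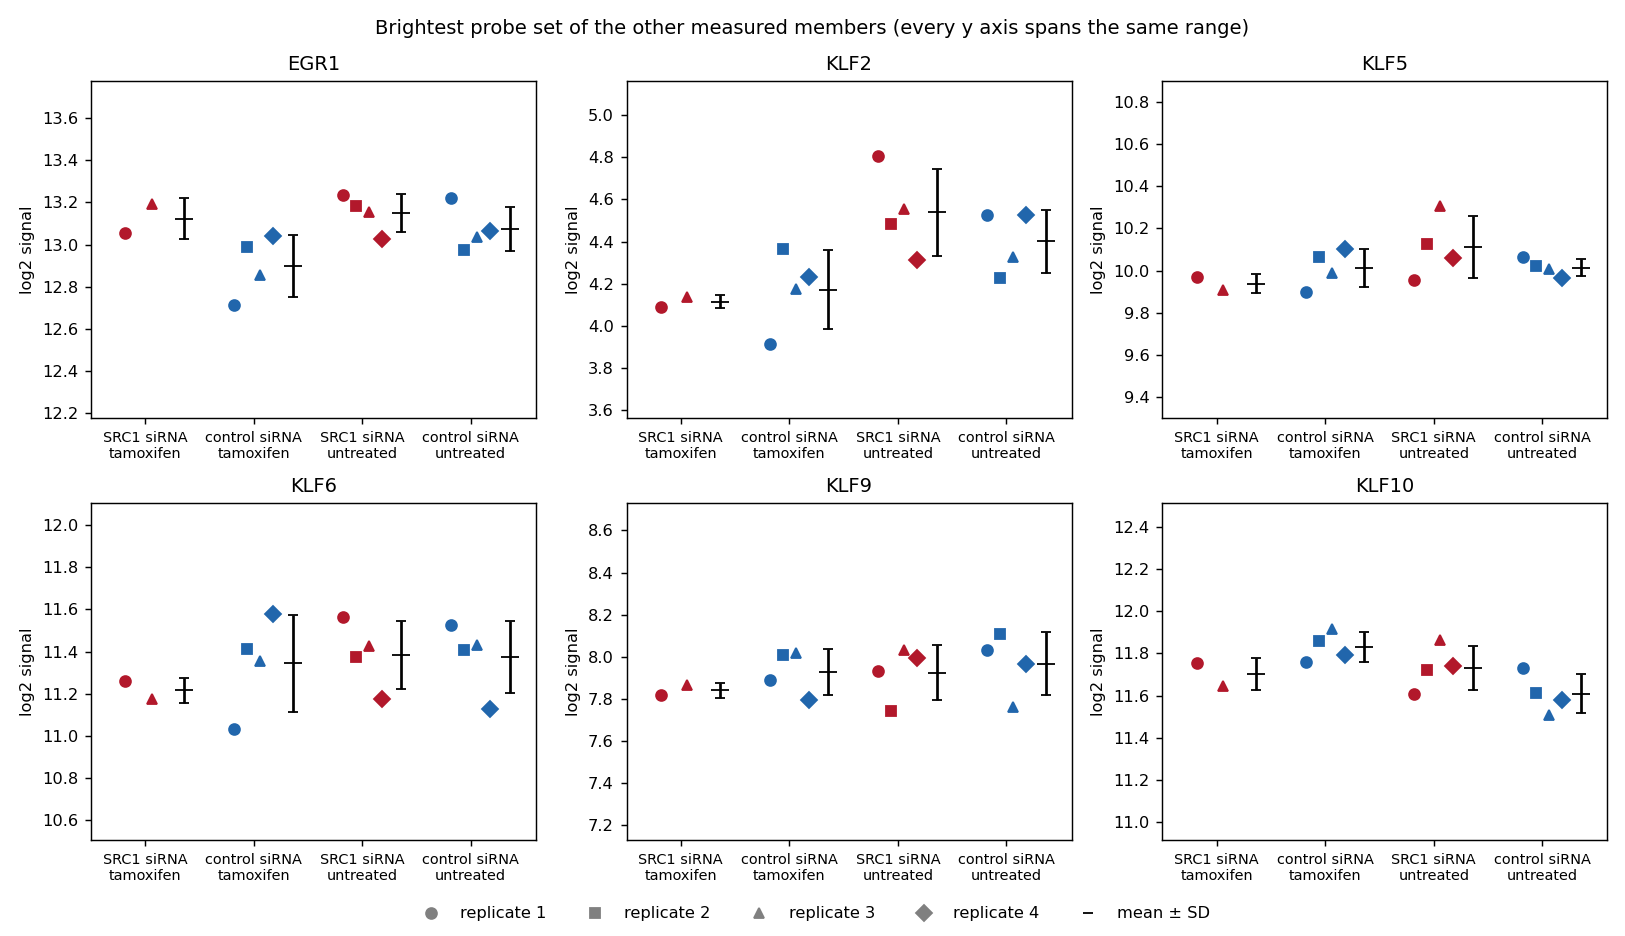
Log2 signal (y axis, the same span in every panel) of the brightest probe set of EGR1, KLF2, KLF5, KLF6, KLF9 and KLF10 on each array, in the 4 groups (x axis); symbols give the replicate number, bars the mean ± SD. The groups lie close together: KLF6 stays between 11.03 and 11.58 and KLF9 between 7.74 and 8.11.

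Counted over all 24 probe sets, 4 passed for the knockdown with tamoxifen, all higher (EGR3, EGR4 and both of KLF4). Of all probe sets on the array, 13.5% passed in that comparison and 5.76% passed as higher. Untreated, 3 of 24 passed, all higher (EGR3 and both of KLF4), against 10.4% of all probe sets and 4.99% as higher. The median change of the 24 was 0.06 with tamoxifen, against -0.02 for all probe sets, and 0.12 untreated, against -0.00 for all. The siRNA groups did not overlap on 10 of 24 probe sets with tamoxifen, where 36% of all probe sets did not, and on 3 of 24 untreated, where 16.2% did not. Without the arrays of replicate 4, 6 of 24 passed untreated, all higher (EGR3, both of KLF4, EGR4 207768_at and 207767_s_at, and KLF5 209212_s_at), where 8.14% of all probe sets passed and 3.8% as higher. Replicate 4 was singled out after the EGR4 values were seen. Without the arrays of replicate 2, 1 of 24 passed untreated (KLF4 221841_s_at, higher), where 1953 of all 54613 probe sets passed. Without those of replicate 3 the untreated EGR3 call was lost. In a model that also held the replicate number, 1 of 24 (EGR3) passed with tamoxifen, where 2.24% of all did, and the same 3 of 24 passed untreated, where 3.94% did.

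**Figure D3:**
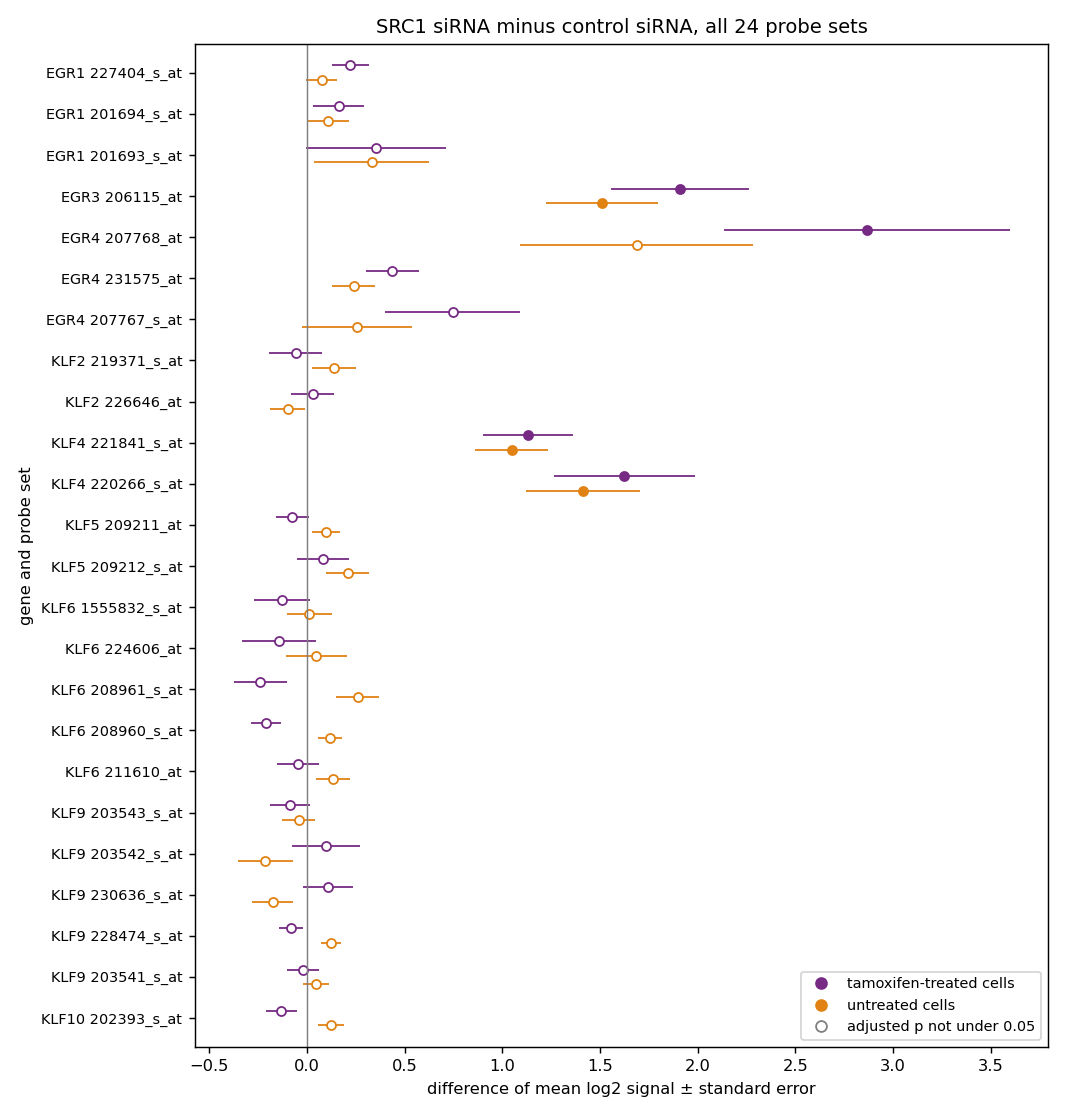
Change of mean log2 signal, SRC1 siRNA minus control siRNA (x axis), with its standard error for each of the 24 probe sets (y axis), in tamoxifen-treated and untreated cells; filled symbols passed at an adjusted p under 0.05. EGR3, EGR4 207768_at and both KLF4 probe sets lie between 1.05 and 2.87, and the 18 probe sets of the other 6 genes between -0.24 and 0.35.

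Whether the knockdown change itself depended on tamoxifen was tested as an interaction, the change with tamoxifen minus the change untreated. It passed for 0 of 24 probe sets in limma, with 4 at an unadjusted p under 0.05, against 0.28% of all probe sets passing. The difference of the changes was 0.40 for EGR3 (95% interval -0.58 to 1.38), 1.18 for EGR4 207768_at (95% interval -0.85 to 3.21), and 0.08 (95% interval -0.56 to 0.72) and 0.21 (95% interval -0.79 to 1.21) for KLF4. These intervals are wide, so EGR4 passing with tamoxifen and not without is not a difference shown between the treatments.

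Few probe sets of these genes passed for 2 hours of tamoxifen, which does not show that the others were unmoved. In SRC1-siRNA cells 1 of 24 probe sets passed, as lower, where 1.51% of all probe sets passed and 0.604% passed as lower. It was the dim KLF6 probe set 208960_s_at, with log2 signals of 2.81 and 3.01 with tamoxifen, against 3.28, 3.24, 3.26 and 3.28 untreated, a change of -0.35 ± 0.08 (adjusted p = 0.0414). That probe set lies below the median of the array, the other 4 KLF6 probe sets did not pass, and the call was lost under 17 of 24 alternatives. KLF2 219371_s_at had 4.09 and 4.14 with tamoxifen, against 4.81, 4.48, 4.55 and 4.31 untreated, without overlap, and its change of -0.43 ± 0.14 did not pass (adjusted p = 0.133). Groups without overlap were common in this comparison: 4 of the 24 probe sets and 24.4% of all probe sets.

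In control-siRNA cells 0 of 24 probe sets passed for tamoxifen in limma, with 5 at an unadjusted p under 0.05, where 0.163% of all probe sets passed. KLF9 230636_s_at, a dim probe set, had 2.99, 2.99, 3.10 and 2.88 with tamoxifen, against 3.41, 3.70, 3.51 and 3.32 untreated, a change of -0.50 ± 0.10 (adjusted p = 0.0672). A brighter KLF9 probe set, 203542_s_at, gave -0.45 ± 0.14 with groups that overlapped (adjusted p = 0.161), and the brightest, 203543_s_at, had 7.79 to 8.02 with tamoxifen and 7.76 to 8.11 untreated. KLF10 had 11.76 to 11.92 with tamoxifen and 11.51 to 11.73 untreated, a change of 0.22 ± 0.07 without overlap (adjusted p = 0.141). In this comparison the groups did not overlap on 2 of the 24 probe sets and on 8.86% of all probe sets. EGR1 227404_s_at gave -0.17 ± 0.08 (adjusted p = 0.306) and KLF6 208961_s_at 0.27 ± 0.11 (adjusted p = 0.261). EGR3 changed by -0.15 (95% interval -0.77 to 0.47) and KLF4 221841_s_at by 0.03 (95% interval -0.37 to 0.43).

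**Figure D4:**
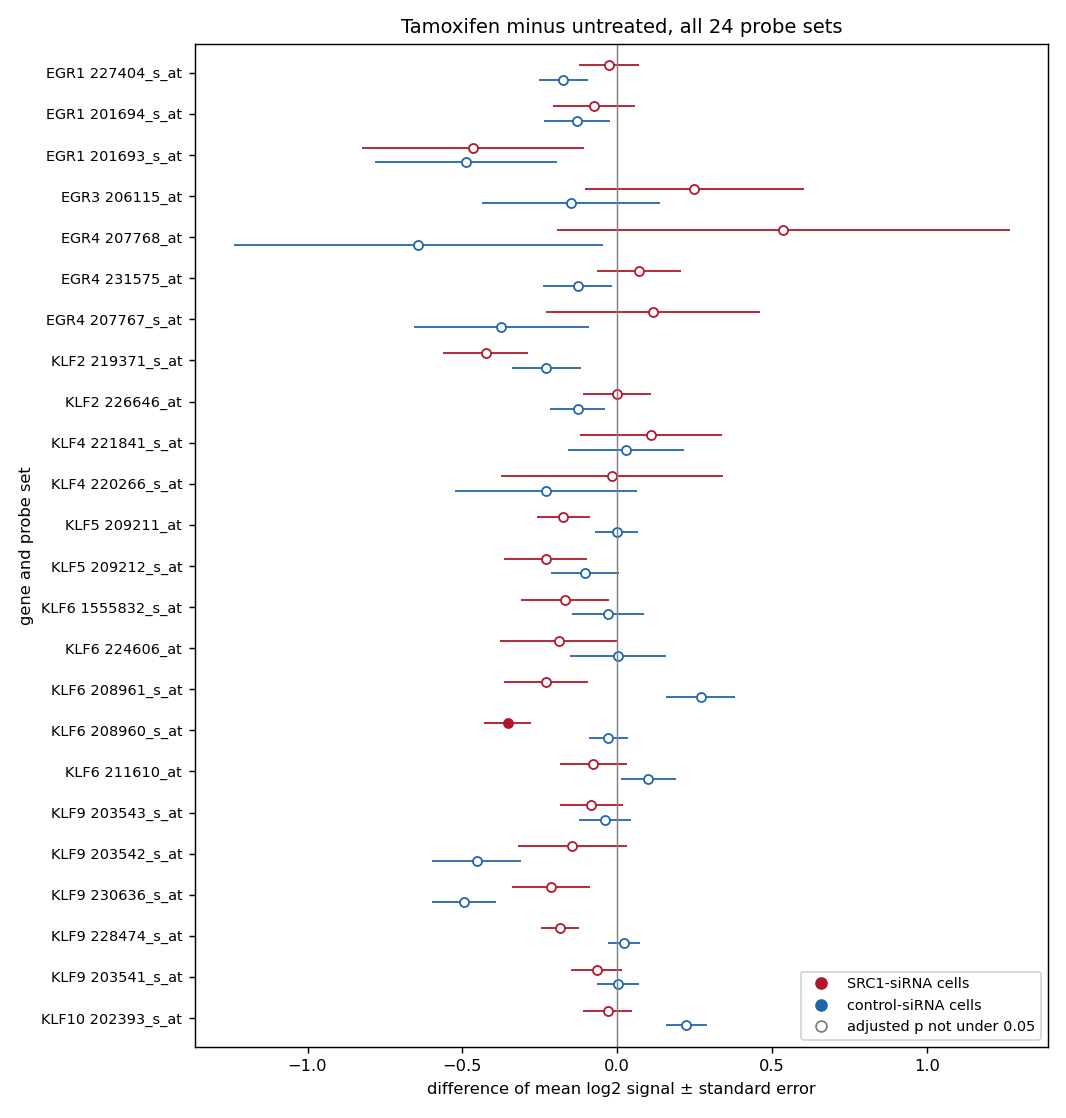
Change of mean log2 signal, tamoxifen minus untreated (x axis), with its standard error for each of the 24 probe sets (y axis), in SRC1-siRNA and control-siRNA cells; the filled symbol passed at an adjusted p under 0.05. It is KLF6 208960_s_at in SRC1-siRNA cells, at -0.35.

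Arrays also differed by replicate number, which the labels do not tie to a shared culture or day. Untreated, EGR3 was higher with SRC1 siRNA by 2.21, 1.52, 1.82 and 0.48 on the log2 scale for replicates 1, 2, 3 and 4. The same differences were 1.71, 0.83, 0.95 and 0.71 for KLF4 221841_s_at. For EGR4 207768_at they were 3.39, 2.66, 2.55 and -1.85. Replicate 4 gave the smallest or the turned difference for EGR3, EGR4 and KLF4. Interferon response genes moved with the siRNA and with the replicate too: 12 of 12 were measured, 5 passed as higher with tamoxifen and 8 untreated (median changes 1.25 and 2.15), and 0 as lower. Of all genes, each by its brightest probe set, 6.49% passed as higher with tamoxifen and 5.97% untreated. With the replicate number in the model 2 passed with tamoxifen (MX1 and ISG20) and 5 untreated, where 2.7% and 4.76% of all genes passed. Their mean was 11.10 to 11.78 with SRC1 siRNA and tamoxifen, against 8.90 to 10.50 with control siRNA and tamoxifen, and 11.11 to 12.86 untreated with SRC1 siRNA, against 8.58 to 10.35 with control siRNA. For replicates 1, 2, 3 and 4 the untreated difference of that mean was 2.40, 0.94, 0.76 and 4.28, largest in replicate 4. The part of the interferon response in the EGR and KLF differences was not tested.

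**Figure D5:**
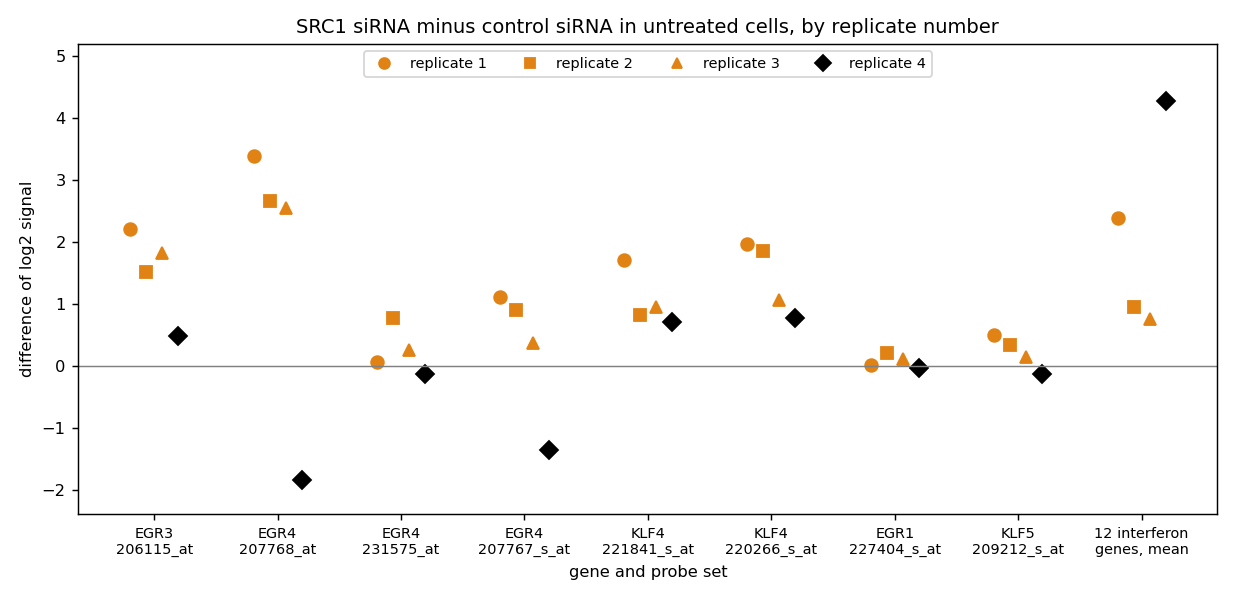
Difference of log2 signal (y axis), SRC1 siRNA minus control siRNA in untreated cells, for each replicate number, for probe sets of EGR3, EGR4, KLF4, EGR1 and KLF5 and for the mean of 12 interferon response genes (x axis). Replicate 4 is the lowest for EGR4 207768_at (-1.85) and EGR3 (0.48) and the highest for the interferon genes (4.28).

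Other genes around the EGR and KLF factors were counted by list, each gene by its brightest probe set. On that basis 15.2% of all genes passed for the knockdown with tamoxifen (6.49% higher, 8.71% lower) and 11.9% untreated (5.97% higher, 5.98% lower). With the replicate number in the model these shares were 2.7% with tamoxifen and 4.76% untreated, and the calls each list then kept are given with it. Among regulators upstream of EGR and KLF genes (serum response factor and its partners, the MAP kinase cascade, ERK5 and MEF2), 16 of 17 were measured. With tamoxifen 5 were higher and 0 lower, and untreated 4 were higher and 1 lower, the last being MRTFB, a coactivator of serum response factor (-0.31, adjusted p = 0.0264). MEF2C, a transcription factor that acts downstream of ERK5, had the largest changes of the list, 2.49 ± 0.29 with tamoxifen (adjusted p = 0.000724) and 2.13 ± 0.24 untreated (adjusted p = 0.000421). MRTFA, MEF2D and MAPK3 were higher under both treatments, by 0.26 to 0.52, and ELK1, a serum response factor partner, was higher by 0.35 with tamoxifen (adjusted p = 0.0440). In this list the median change was 0.17 with tamoxifen and 0.13 untreated. With the replicate number in the model the list had 2 genes higher with tamoxifen (MEF2C and MAPK3) and 1 untreated (MEF2C), and 0 lower, so the calls of MRTFA, MEF2D, ELK1 and MRTFB, and of MAPK3 untreated, were lost.

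Other immediate early genes showed changes of their own: of 22 listed, 21 were measured, 6 were higher and 0 lower with tamoxifen (median change 0.26), and 6 were higher and 1 lower untreated (median change 0.31). ATF3, a stress-induced repressor, rose by 1.65 ± 0.42 with tamoxifen (adjusted p = 0.0224) and 1.55 ± 0.35 untreated (adjusted p = 0.0128). NR4A3, an orphan nuclear receptor, rose by 1.20 ± 0.31 with tamoxifen (adjusted p = 0.0223) and 1.36 ± 0.25 untreated (adjusted p = 0.00467). PPP1R15A, which reverses the arrest of translation under stress, rose by 0.87 with tamoxifen (adjusted p = 0.0157) and 0.99 untreated (adjusted p = 0.00295). MCL1, FOSL2 and TRIB1 with tamoxifen and JUNB, ZFP36 and MCL1 untreated were higher by 0.26 to 0.45. For tamoxifen in control-siRNA cells 0.248% of all genes passed on this basis. MYC was lower with SRC1 siRNA untreated (-0.45 ± 0.13, adjusted p = 0.0371) and with tamoxifen in control-siRNA cells (-0.81 ± 0.13, adjusted p = 0.0343). With the replicate number in the model 0 immediate early genes passed with tamoxifen and 4 untreated, all higher (ATF3, NR4A3, MCL1 and PPP1R15A), and both MYC calls were lost; for tamoxifen in control-siRNA cells 0% of all genes then passed.

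Of 8 listed corepressors of EGR proteins and turnover factors of KLF proteins, 7 were measured. NAB2, the EGR corepressor, was higher by 0.51 ± 0.14 with tamoxifen (adjusted p = 0.0284) and 0.40 ± 0.11 untreated (adjusted p = 0.0387), and VHL by 0.42 untreated (adjusted p = 0.0144). These NAB2 and VHL calls were all lost with the replicate number in the model (adjusted p = 0.128 and 0.118 for NAB2, 0.0612 for VHL). Among 14 feedback genes of the MAP kinase pathway, 1 was higher and 1 lower with tamoxifen, and 3 were higher and 0 lower untreated. SPRY2, an inhibitor of receptor tyrosine kinase signalling, was higher by 0.58 with tamoxifen (adjusted p = 0.0391) and by 0.87 untreated (adjusted p = 0.00215), and SPRED1 was lower with SRC1 siRNA in tamoxifen-treated cells (-0.45, adjusted p = 0.0303). SPRY1 (0.53) and ERRFI1 (0.31) were higher untreated. These 3 untreated calls were kept with the replicate number in the model, and those of SPRY2 and SPRED1 with tamoxifen were lost.

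Of 16 reported targets of EGR and KLF factors 13 were measured; 2 were higher and 1 lower with tamoxifen, and 3 were higher and 1 lower untreated. CDKN1A, the cell cycle inhibitor p21 and a reported KLF4 target, was higher by 0.33 ± 0.07 with tamoxifen (adjusted p = 0.0108) and 0.24 ± 0.06 untreated (adjusted p = 0.0185). NAB2, in this list too, has its values above. TFPI2, a serine protease inhibitor, was higher by 0.98 ± 0.22 untreated (adjusted p = 0.0128), CDH1, which encodes E-cadherin, lower untreated (-0.27, adjusted p = 0.00864), and THBS1, which encodes thrombospondin, lower with tamoxifen (-0.47, adjusted p = 0.0373). CDKN1A untreated was the 1 target that passed with the replicate number in the model (adjusted p = 0.0382), and 0 targets passed with tamoxifen. Among the other 17 KLF and SP family genes, all measured, 1 was higher and 1 lower with tamoxifen, and 2 were higher and 1 lower untreated. SP6, a factor of skin and tooth epithelium, was higher by 2.81 ± 0.33 with tamoxifen (adjusted p = 0.000736) and 2.29 ± 0.27 untreated (adjusted p = 0.000537). KLF3, a repressor, was higher by 0.37 untreated (adjusted p = 0.0167), the dim KLF1 lower (-0.35, adjusted p = 0.00544) and KLF16 lower with tamoxifen (-0.30, adjusted p = 0.0470). In control-siRNA cells KLF1 was also lower with tamoxifen than untreated (-0.37, adjusted p = 0.0478). SP6 passed under both treatments with the replicate number in the model too, as did KLF1 as lower untreated, and the calls of KLF3 and KLF16, and that of KLF1 for tamoxifen in control-siRNA cells, were lost.

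The genes whose pattern was most like that of a member were found by the root mean square difference of profiles, each centred on its own mean, over the 14 arrays and 23018 probe sets above the median signal. For EGR3 they were TNFSF15, a cytokine of the tumour necrosis factor family (0.183 on the log2 scale), the antisense gene LIF-AS2 (0.206) and GBP4, a guanylate-binding protein (0.210), while EGR3 itself varied with an SD of 0.95 over the arrays. For KLF4 they were MXD1, a partner of MAX (0.112), TGFA, a ligand of the EGF receptor (0.118), and GDPD3 (0.135). For EGR1, whose brightest probe set hardly varied, the nearest were NAB1, the EGR corepressor (0.0501), SERTAD2 (0.0589) and INTS4 (0.0614). The arrays compared share the siRNA and treatment groups, and these distances are a description with no test.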

How the data were processed

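RNA of LY2 cells was amplified and labelled with biotin, per the labels' protocols, and hybridised to Affymetrix HG-U133 Plus 2.0 arrays. The deposited values are log2 signals, 1 per probe set and array; the submitters' processing notes name R 2.9.2, while how background was corrected, arrays normalized and probes summarised is not given in the sources used. The values were used as deposited, without 62 control probe sets, which left 54613, of which 41091 had 1 gene symbol, 1801 several and 11721 none. Symbols were updated by Entrez ID through a RefSeq table (GRCh38.p14), which also gave loci and promoters. Arrays give no depth of reads, and the number of arrays limits precision. A model of 4 group means over 14 arrays was fitted with limma 3.58.1 (lmFit, eBayes; statmod 1.5.0, R 4.3.3), two-sided, with Benjamini-Hochberg adjustment over all 54613 probe sets and a threshold of 0.05. NCOA1 was compared by an exact permutation test. The code was tested on simulated data.

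Members, lists, tests and alternatives were chosen with earlier results of these data known. Named are all members on every probe set with 1 symbol, NCOA1, up to 6 passing genes per list and comparison by smallest p, and the 3 genes most like EGR3, EGR1 and KLF4. Lists are described by their counts and medians. The alternatives were the replicate number as a term, quantile normalization, median centring, leaving out dim probe sets, array weights, eBayes with trend and robust, fitting only the groups compared, and leaving out each array or all arrays of a replicate number.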

Additional observations from a re-analysis of the deposited data

Results flagged for a closer look

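In groups of 4 arrays, a single array stood far from the other 3 in 5 of 72 groups tested (24 probe sets in 3 groups), where chance gives about 1 in 20. The 5 are near that share, and the 72 tests are not independent, since the probe sets share the same arrays. EGR3 206115_at was at 6.29 in control-siRNA tamoxifen replicate 1, and the nearest other array of that group was at 7.49. EGR4 207768_at was at 6.36 in control-siRNA untreated replicate 4, with the nearest at 4.13. EGR4 231575_at was at 4.80 in SRC1-siRNA untreated replicate 2, with the nearest at 4.45. KLF5 209212_s_at was at 4.76 in control-siRNA tamoxifen replicate 4, with the nearest at 4.39. KLF6 224606_at was at 10.83 in SRC1-siRNA untreated replicate 1, with the nearest at 10.60.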

How the results depend on the processing

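The 8 changes that passed kept their direction under all 199 alternatives run for them and passed in 166; of 2742 alternatives of changes that did not pass, 13 passed. Over all single arrays and replicate numbers left out, the number of members' probe sets passing ran from 1 (without replicate 2) to 6 (without replicate 4; then EGR3, EGR4 207768_at and 207767_s_at, both of KLF4 and KLF5 209212_s_at at 0.32, adjusted p = 0.0227) for the untreated knockdown. It ran from 0 (without SRC1 siRNA tamoxifen replicate 1) to 5 (without single untreated arrays or replicate 4) for the knockdown with tamoxifen, where it was 2 without replicate 1 and 2 without replicate 3. For tamoxifen in SRC1-siRNA cells it ran from 0 to 1, and it was 0 with only the groups compared and with array weights. Leaving out dim probe sets removed the passing probe set, KLF6 208960_s_at, so that setting is no test of its call. Same-numbered arrays deviated in opposite directions in 18 of 18 pairs (correlation -0.58 to -0.04, median -0.33). The main model left the number out because the labels do not tie it to a shared culture or day. These correlations are no reason to leave it out. Whether the authors removed differences between numbers is not stated, and if they did, the p-values without the number as a term are too small. With the replicate number as a block, 1 probe set passed for the knockdown with tamoxifen (EGR3, adjusted p = 0.0396) and 0 for tamoxifen in SRC1-siRNA cells. EGR4 207768_at then had an adjusted p of 0.108 and KLF4 of 0.0585 and 0.0750 with tamoxifen; untreated, EGR3 had 0.0269 and KLF4 0.0232 and 0.0401. The blocked exact permutation test of NCOA1 untreated gave -1.30 with p = 0.125, the smallest it allows. Over the whole table the block left 1224 of 7350 probe sets passing for the knockdown with tamoxifen, 2154 of 5653 untreated, 0 of 824 and 1 of 89 for tamoxifen in SRC1-siRNA and control-siRNA cells, and 0 of 153 for the interaction. Fitting only the groups compared left 4025 passing for the knockdown with tamoxifen, 109 for tamoxifen in SRC1-siRNA cells and 2 in control-siRNA cells; array weights gave 371 and 232 for tamoxifen in SRC1-siRNA and control-siRNA cells. Leaving out dim probe sets left 246 for tamoxifen in SRC1-siRNA cells and 23 for the interaction, and median centring left 35 for tamoxifen in control-siRNA cells. Median centring turned the share of higher calls to 45.4% in place of 60.0% for tamoxifen in SRC1-siRNA cells and to 36.2% in place of 47.7% for the interaction. With single arrays or replicate numbers left out, the whole-table counts ran from 1183 to 7215, 1953 to 5750, 3 to 879, 0 to 68 and 0 to 346 in the order of comparisons given for the block. The cause of these shifts was not tested.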

Other observations

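EGR4 207768_at was singled out after its values were seen. The pattern searched for was chosen from those values, so finding EGR4 by it is no support for EGR4. Across 54613 probe sets it was the only 1 that was higher with SRC1 siRNA by more than 1 on the log2 scale in replicates 1, 2 and 3 untreated and lower by more than 1 in replicate 4. No probe set was turned the other way, 0 were turned in replicate 1, 2 or 3, and 99 were higher by more than 1 in all 4 replicates. What sets the EGR4 signal apart on the untreated arrays of replicate 4 was not tested.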
